A study of Mus musculus with 6 samples.

Results

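The proteasome and immunoproteasome genes of CD4+ T cells were defined by name, as every gene whose symbol begins with Psm, a letter from a to g and a digit. Of 19938 named genes on the arrays, 50 met this rule, through 56 transcript clusters (the probe groups that each stand for 1 transcript unit) with a single gene symbol, and 5 of the genes had several clusters. Each gene was read from the cluster with the highest mean over the arrays, a choice that did not use the groups. The 50 comprised 14 constitutive core subunits, 3 immune catalytic subunits, 2 tissue-restricted core subunits, 17 cap subunits, 3 chaperones of cap assembly, the 2 immune activator subunits Psme1 and Psme2, 3 further regulators, 4 chaperones of core assembly, and 2 genes, Psmc3ip and Psme3ip1, whose names fit the rule although they encode partners of other proteins and not subunits. The proteins cannot be seen on these arrays, which measure RNA.

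The RNA came from naive females aged 8 weeks, born in mixed sex litters. The B6 group was wild-type C57BL/6J. The B6-ChrYSJL group had the same C57BL/6J background, in a consomic strain whose males carry the Y chromosome of SJL mice, so that these females carry no Y chromosome and differ from B6 in the Y chromosome of their fathers. There were 3 pools of each, each made of CD4+TCRβ+ cells sorted from the pooled inguinal, brachial and axillary nodes of 5 mice, and 50 ng of RNA per pool was amplified and hybridized to 1 Affymetrix array of 6. Of the T cell markers Cd4, Cd3e, Cd3d, Cd3g, Cd5 and Cd28, all 6 exceeded the upper quartile of each array. The arrays correlated at 0.991 to 0.993 across transcripts, their medians lay between 6.41 and 6.44 on the log2 scale, and no array stood apart.

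The proteasome is a barrel of stacked rings that degrades proteins tagged with ubiquitin. The outer rings of the core particle are built from alpha subunits (Psma genes) and gate the entrance, and the inner rings from beta subunits (Psmb genes), of which Psmb5, Psmb6 and Psmb7 carry the active sites. A cap of ATPases (Psmc genes) and other subunits (Psmd genes) binds ubiquitin chains, unfolds the substrate and feeds it in. In lymphocytes and under interferon-gamma, Psmb8, Psmb9 and Psmb10 take the places of Psmb5, Psmb6 and Psmb7 to form the immunoproteasome, and Psme1 and Psme2 form the PA28 activator, which together change the peptides available for MHC class I molecules. The immune subunit genes Psmb9 and Psmb8 lie within the MHC, in the RefSeq gene order Psmb9, Tap1, Psmb8 and Tap2 with no other gene between neighbours, Tap1 and Tap2 being the chains of the peptide transporter that carries proteasome products into the endoplasmic reticulum. Psme1 and Psme2 are also near neighbours, with Emc9 between them.

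The stretches before the starts of these genes are shown because the immune subunits and the constitutive subunits they replace are described apart below. All are from RefSeq on GRCm38.p6 and are read 5′ to 3′ on the strand given. Those of single genes cover the 180 bases before the start and the first 30 from it. Psmb9 and Tap1 are transcribed in opposite directions from one shared stretch, printed whole on the strand of Psmb9, from chr17:34187331-34187555 on the minus strand. The capitals mark the letters ATTGG, which read CCAAT on the opposite strand and were not among the motifs searched.
Psmb9 and Tap1: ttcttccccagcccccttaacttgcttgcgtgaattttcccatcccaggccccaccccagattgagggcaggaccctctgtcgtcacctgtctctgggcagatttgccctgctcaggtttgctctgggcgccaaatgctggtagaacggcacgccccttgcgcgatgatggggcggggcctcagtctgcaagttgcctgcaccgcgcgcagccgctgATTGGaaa
The stretch of Psmb8 is chr17:34198015-34198224 on the plus strand, with capitals at a match to TTCNNNGAA, the gamma-activated sequence that STAT factors bind, which begins 97 bases before the start.
Psmb8: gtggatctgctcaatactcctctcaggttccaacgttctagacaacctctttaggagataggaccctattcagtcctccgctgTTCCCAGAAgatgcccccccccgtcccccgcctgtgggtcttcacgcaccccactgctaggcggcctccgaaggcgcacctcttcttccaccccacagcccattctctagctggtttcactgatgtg
The stretch of Psme1 is chr14:55578314-55578523 on the plus strand, with capitals at a match, on the opposite strand, to the interferon-stimulated response element (GAAA, any 2 bases, GAAA), which begins 9 bases after the start.
Psme1: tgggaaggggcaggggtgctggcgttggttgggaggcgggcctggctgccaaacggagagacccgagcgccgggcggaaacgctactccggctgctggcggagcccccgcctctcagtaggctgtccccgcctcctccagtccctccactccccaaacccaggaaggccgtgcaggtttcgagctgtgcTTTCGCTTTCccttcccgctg
The constitutive genes Psmb5, chr14:54617966-54618175 on the minus strand, and Psmb6, chr11:70525177-70525386 on the plus strand, each hold TGACNNNGC, the core of the antioxidant response element through which Nfe2l1 and Nfe2l2 raise proteasome genes, beginning 47 and 9 bases before the start.
Psmb5: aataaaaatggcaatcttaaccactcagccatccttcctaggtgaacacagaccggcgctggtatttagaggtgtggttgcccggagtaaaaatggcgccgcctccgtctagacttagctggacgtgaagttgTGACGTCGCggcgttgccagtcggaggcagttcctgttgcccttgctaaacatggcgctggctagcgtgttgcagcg
Psmb6: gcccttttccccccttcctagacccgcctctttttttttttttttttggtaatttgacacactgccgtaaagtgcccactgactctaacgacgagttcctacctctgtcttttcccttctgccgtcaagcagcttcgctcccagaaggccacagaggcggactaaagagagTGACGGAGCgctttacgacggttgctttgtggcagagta

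Promoter windows of 250 bases before to 50 after the start were held for 42 of the 50 genes, and each motif was searched on both strands. Psmb7 was among the genes without a window, for which nothing can be said on these motifs. TGACNNNGC matched in 6 of the 42 (14.3%) and in 14.0% of the windows of 27025 genes. The interferon-stimulated response element matched in 5 (11.9%), against 3.99% of all windows, and TTCNNNGAA in 3 (7.14%), against 9.55%. The 5 were Psmb3, Psmd4, Psmd9, Psme1 and Psmg4, of which only Psme1 is an immune subunit. The 3 were Psmb8, Psmd2 and Psmg1, of which only Psmb8 is. The motif CCGGAAG, the core of the sites that ETS factors bind, was looked at after matches had been seen, and it lay in 16 of the 42 (38.1%) against 9.93% of all windows. It was found in the windows of Psmc1, Psmc2, Psmc6 and the lid gene Psmd12, among others. The immune genes Psmb8 and Psme1 had no match, and neither did the constitutive genes Psmb5 and Psmb6. Among the genes with a window, Psma6 was the only core subunit with a match. A match is only a run of letters in the window. The genes with a match to CCGGAAG had log2 fold changes from −0.14 to 0.10 (median −0.03), and those with TGACNNNGC from −0.10 to 0.03 (median −0.04).

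Whether the paternal Y chromosome went with a different level of proteasome RNA was asked by fitting B6-ChrYSJL minus B6 with limma over all 23410 transcript clusters tested. The proteasome genes lay close together in both strains. Only Psmb7, one of the constitutive catalytic subunits, reached an unadjusted p under 0.05, and its log2 fold change of 0.16 corresponds to 1.12-fold. Thus 1 of 50 genes was higher and 0 were lower at this threshold, while 10.6% of all clusters tested passed it, 4.69% higher and 5.92% lower. At a false discovery rate (FDR, Benjamini-Hochberg over all clusters) of 0.05, 0 of the 50 passed and the smallest adjusted p was 0.424, against 0.0171% of all clusters, or 4 clusters. A p that misses the threshold does not show equal levels, so the size of a difference that these arrays leave room for is given by the intervals. Background was set at 5.98, the level below which 95% of 1210 smell and pheromone receptor transcripts (olfactory and vomeronasal genes) fell on these arrays. Of the 48 genes above it, 35 had a 95% interval lying wholly within 1.2-fold in either direction and 48 within 1.5-fold. The interval reaching furthest was that of the core chaperone Psmg3, with its lower bound at −0.41 on the log2 scale.

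**Figure D1:**
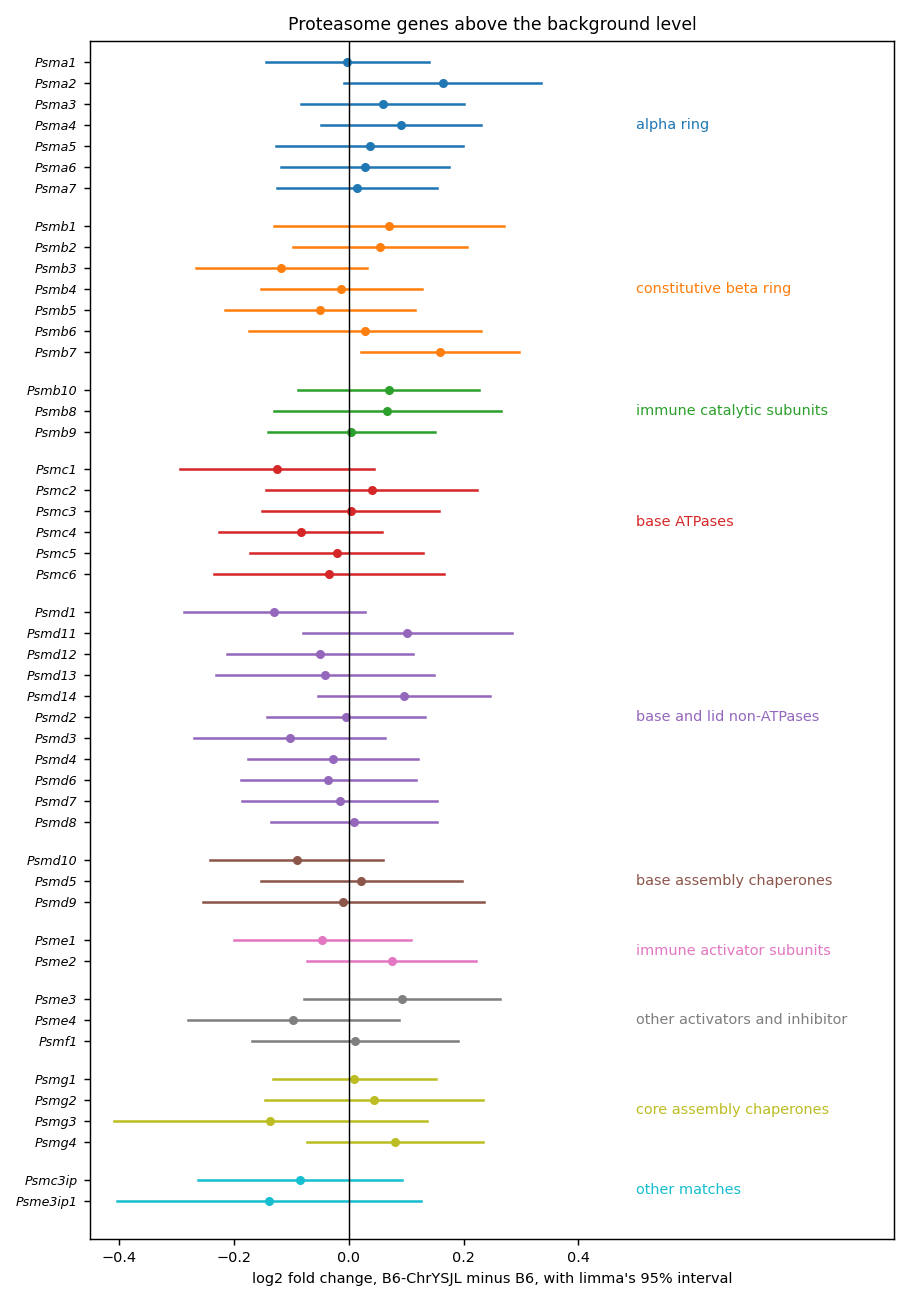
Log2 fold change (horizontal axis, B6-ChrYSJL minus B6) of each of the 48 proteasome genes above background, coloured by role, with points for limma's estimate and bars for its 95% interval over 3 pools against 3. Psmb7 is the only gene whose bar does not reach 0, and the estimates run from −0.14 for Psme3ip1 to 0.16 for Psma2.

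The fold changes were spread on both sides of 0, with 26 of the 50 above 0 and 24 below. Over all clusters 48.9% lay above 0, and over those above background 44.4%. The median log2 fold change was 0.004 for the proteasome genes, −0.004 for all clusters tested and −0.02 for those above background. In size, the median was 0.05 for the 50 genes against 0.08 for all clusters, and the standard errors had medians of 0.07 and 0.08. The groups did not overlap for 5 genes, higher in B6-ChrYSJL for Psma3, Psma4 and Psmb7 and lower for Psmb3 and Psmc4. Over all clusters tested 17.1% had groups without overlap, 7.68% higher and 9.42% lower.

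Among the members themselves, the range over the 6 pools had a median of 0.18 log2 units and the SD within a group had a median of 0.06. The steadiest, as read from the chosen clusters, was Psmd2, a large scaffold of the cap base, whose pools spanned 0.04, although its other cluster ran from 9.46 to 9.66. The widest of those above background was Psme3ip1, which encodes a nuclear partner of the activator Psme3, at 0.53. The pools differed little in their proteasome genes as a whole, with B6 pool 1 the lowest. The mean of the 48 genes, each centred on its own mean over the 6 arrays, was −0.04, 0.02 and 0.02 in B6 pools 1 to 3 and −0.02, 0.02 and −0.007 in B6-ChrYSJL pools 1 to 3. B6 pool 1 gave the lowest value for 14 of the 48 genes and the highest for 2, whereas 16.0% of all transcripts above background were lowest in that pool. B6-ChrYSJL pool 2 gave the highest value for 16 of the 48, against 19.99% of all such transcripts.

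The immune catalytic subunits were measured clearly above background in every pool and overlapped between the strains. Psmb8, which replaces Psmb5, read 9.98, 10.16 and 10.25 in the B6 pools and 10.20, 10.27 and 10.12 in the B6-ChrYSJL pools. B6 pool 1 was the lowest of the 6 and the others interleaved, and the log2 fold change was 0.07 (SE 0.09, 95% interval −0.13 to 0.26, limma adjusted p = 0.818). Without B6 pool 1 it was −0.008. Psmb9, which replaces Psmb6, read 11.86, 11.96 and 11.93 in B6 and 11.94, 11.89 and 11.94 in B6-ChrYSJL. The groups overlapped almost wholly, with the lowest value again in B6 pool 1, and the log2 fold change was 0.005 (SE 0.06, interval −0.14 to 0.15, limma adjusted p = 0.984). Psmb10, which replaces Psmb7 and is encoded outside the MHC, read 10.24, 10.35 and 10.20 in B6 and 10.39, 10.31 and 10.30 in B6-ChrYSJL. The highest pool was of B6-ChrYSJL and the second highest of B6, with a log2 fold change of 0.07 (SE 0.07, interval −0.09 to 0.23, limma adjusted p = 0.754).

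The PA28 activator subunits form one ring together, and their estimates lay on opposite sides of 0. Psme1 read 11.17, 11.18 and 11.17 in B6 and 11.22, 11.10 and 11.06 in B6-ChrYSJL, so that B6-ChrYSJL held both the highest pool and the 2 lowest. Its log2 fold change was −0.05 (SE 0.07, interval −0.20 to 0.11, limma adjusted p = 0.846). Psme2 read 11.19, 11.27 and 11.21 in B6 and 11.24, 11.31 and 11.35 in B6-ChrYSJL, with 1 pool of B6 above the lowest of B6-ChrYSJL, and its log2 fold change was 0.08 (SE 0.06, interval −0.07 to 0.22, limma adjusted p = 0.714). A further cluster is annotated to Psme2 and to a near-identical copy of it and could not be given to either, and its log2 fold change was −0.05. Over the 5 immune subunits, 4 estimates were above 0 and 1 below, with a median of 0.07, and without B6 pool 1 the median was −0.008.

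The constitutive subunits whose places the immune subunits take are the active sites of the standard core. Psmb5, the chymotrypsin-like subunit, read 10.66, 10.78 and 10.79 in B6 and 10.78, 10.64 and 10.66 in B6-ChrYSJL, and Psmb6, the caspase-like subunit, read 10.73, 10.77 and 10.87 in B6 and 10.98, 10.77 and 10.70 in B6-ChrYSJL. Both groups overlapped for both genes, and the log2 fold changes were −0.05 (limma adjusted p = 0.844) and 0.03 (limma adjusted p = 0.931). Psmb7, the trypsin-like subunit, read 10.40, 10.35 and 10.34 in B6 and 10.52, 10.53 and 10.52 in B6-ChrYSJL. All 3 B6-ChrYSJL pools were above all 3 B6 pools, with means of 10.52 ± 0.008 (SD, n = 3) and 10.36 ± 0.03 (SD, n = 3). Its log2 fold change was 0.16 (SE 0.06, interval 0.02 to 0.30, limma adjusted p = 0.424). Without any single pool it stayed between 0.15 and 0.18, but with the unadjusted p under 0.05 only when the pool left out was B6 pool 1.

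**Figure D2:**
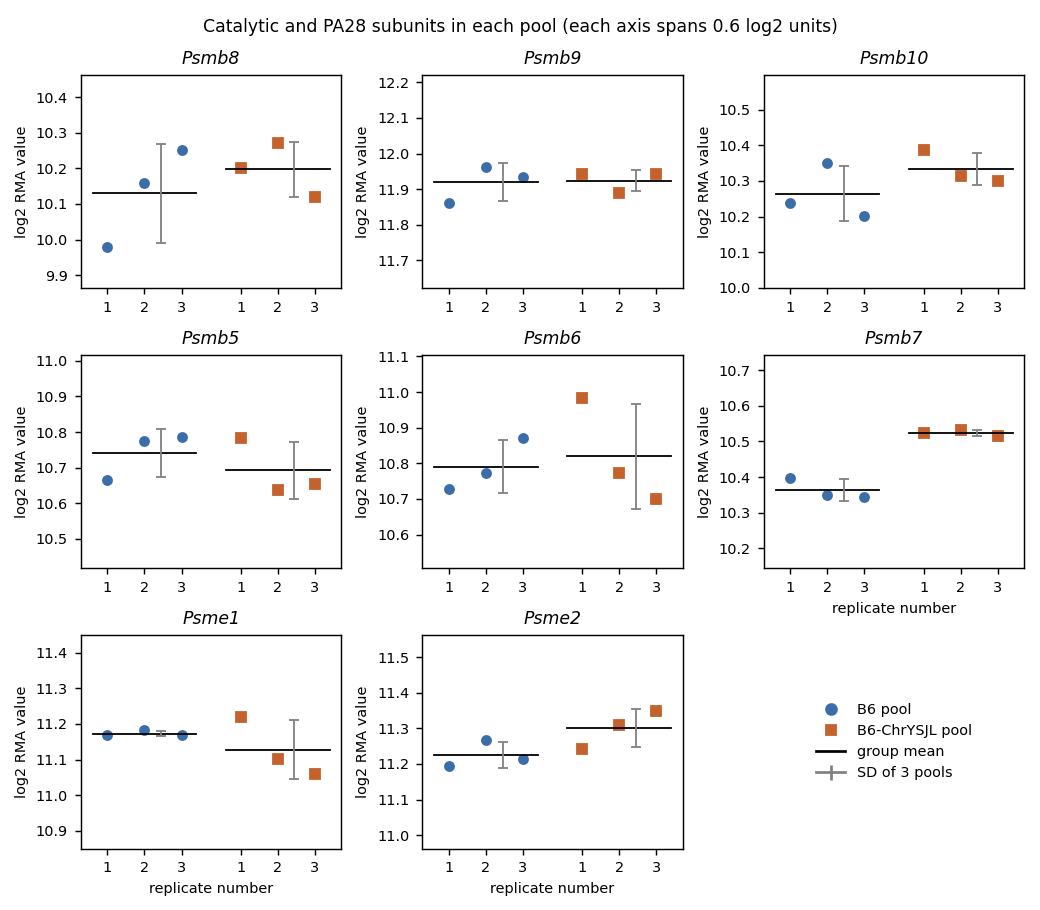
Log2 RMA value (vertical axis, 0.6 log2 units in every panel) of the immune catalytic subunits, the constitutive subunits they replace, and the PA28 subunits in each of 3 B6 pools (circles) and 3 B6-ChrYSJL pools (squares), with the group mean as a line and the SD of 3 pools as a bar. The groups overlap in every panel but that of Psmb7, where the B6 pools reach 10.40 and the B6-ChrYSJL pools begin at 10.52.

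The balance between the standard and the immune form was followed as the difference of each immune gene minus the gene it replaces, within each pool. Levels of different probe sets cannot be compared with each other, but this difference can be compared between pools. For Psmb8 minus Psmb5 it was −0.68, −0.62 and −0.54 in B6 and −0.58, −0.37 and −0.54 in B6-ChrYSJL, and for Psmb9 minus Psmb6 it was 1.13, 1.19 and 1.06 in B6 and 0.96, 1.12 and 1.24 in B6-ChrYSJL. For Psmb10 minus Psmb7 it was −0.16, 0.0004 and −0.14 in B6 and −0.14, −0.22 and −0.21 in B6-ChrYSJL. The groups overlapped for each of the 3 pairs. The differences between the strains were 0.12 for Psmb8 minus Psmb5, −0.02 for Psmb9 minus Psmb6 and −0.09 for Psmb10 minus Psmb7, with exact two-sided permutation p of 0.3, 0.9 and 0.3 (0.45, 0.9 and 0.45 adjusted over the 3 pairs), where 3 pools against 3 cannot give a p below 0.1.

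The rest of the core was the alpha ring and the beta subunits without active sites. In the alpha ring, 6 of 7 estimates lay above 0, from −0.002 for Psma1 to 0.16 for Psma2, with a median of 0.04. At an unadjusted p under 0.05 there were 0 of 7, against 10.6% of all clusters. Psma2 had the smallest p of the ring and read 10.37, 10.54 and 10.47 in B6 and 10.54, 10.65 and 10.69 in B6-ChrYSJL. The highest B6 pool lay just above the lowest B6-ChrYSJL pool (SE 0.07, limma adjusted p = 0.486). The groups were apart for 2 of the 7, Psma3 and Psma4, as they were for 17.1% of all clusters. Psma4 read 10.55, 10.48 and 10.53 in B6 and 10.62, 10.59 and 10.61 in B6-ChrYSJL, with a log2 fold change of 0.09 (limma adjusted p = 0.626). As a mean over the 7 alpha genes centred on their own means, the B6 pools lay at −0.03, −0.01 and −0.04 and the B6-ChrYSJL pools at 0.005, 0.05 and 0.03, which did not overlap. This mean was not tested, since its genes were grouped with earlier results known. The median log2 fold change of the ring ran from 0.02 to 0.06 with 1 pool left out, and with array medians set equal it was 0.02, with 5 of 7 above 0.

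In the constitutive beta ring, 4 of 7 estimates lay above 0 and 3 below, with a median of 0.03. The median was −0.04 without B6-ChrYSJL pool 1, −0.003 without B6 pool 1 and up to 0.05 without one of the others. Psmb7 and Psmb3 stood at its ends, and Psmb1, Psmb2 and Psmb4 had log2 fold changes of 0.07, 0.05 and −0.01. Psmb3, a subunit without an active site, read 11.36, 11.45 and 11.44 in B6 and 11.36, 11.29 and 11.26 in B6-ChrYSJL. Each B6-ChrYSJL pool was below each B6 pool, though the nearest pair are equal to 2 decimals, and the log2 fold change was −0.12 (SE 0.06, limma adjusted p = 0.558). The remaining alpha genes Psma3, Psma5, Psma6 and Psma7 had log2 fold changes of 0.06, 0.04, 0.03 and 0.01.

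The core subunits restricted to other tissues were read for their level alone, and low values of these genes cannot identify the cells as CD4+. Psmb11, the beta subunit of the thymoproteasome of thymic cortical epithelium, averaged 5.81 and Psma8, the alpha subunit of the testis, averaged 5.26, both below the background level of 5.98. In single pools Psmb11 exceeded that level, at 6.12 in B6 pool 2 and 6.45 in B6-ChrYSJL pool 1. No difference between the strains is read from values at this level.

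Of 17 cap genes, 5 had estimates above 0 and 12 below, with a median of −0.03. Of the 14 constitutive core genes 10 were above 0, with a median of 0.03. Over all clusters 48.9% lay above 0, and over those above background 44.4%. At an unadjusted p under 0.05 there were 0 cap genes and 1 core gene, beside 10.6% of all clusters, and the difference between core and cap was not tested. These counts depended on scaling. With array medians set equal, 14 of 17 cap genes were below 0 and 9 of 14 core genes above, and with the values quantile-normalized again 9 of 17 and 10 of 14, with the cap median at −0.006. Leaving out each pool in turn gave 9 to 15 of the 17 cap genes below 0, with medians from −0.06 to −0.003, and 8 to 11 of the 14 core genes above 0.

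The 6 ATPases of the cap base, which unfold the substrate, ran from −0.12 for Psmc1 to 0.04 for Psmc2, with 2 above 0 and 4 below. Psmc1 read 9.95, 10.09 and 10.06 in B6 and 9.95, 9.81 and 9.96 in B6-ChrYSJL. Only the lowest B6 pool came down into the range of the other group, and the limma adjusted p was 0.585. Psmc4 was at 9.54, 9.61 and 9.63 in B6 and 9.51, 9.53 and 9.49 in B6-ChrYSJL, without overlap, with a log2 fold change of −0.08 (limma adjusted p = 0.663). Psmc3, Psmc5 and Psmc6 had log2 fold changes of 0.004, −0.02 and −0.03.

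Of the 11 other cap genes, 3 had estimates above 0 and 8 below, from −0.13 for Psmd1 to 0.10 for Psmd11. Psmd1, which with Psmd2 forms the scaffold of the base, read 9.23, 9.34 and 9.34 in B6 and 9.12, 9.24 and 9.17 in B6-ChrYSJL, overlapping through 1 pool of each (limma adjusted p = 0.540). Psmd4, a ubiquitin receptor of the cap, had a log2 fold change of −0.03. Psmd14, the enzyme of the lid that cuts ubiquitin chains from the substrate, had 0.10 (SE 0.07, limma adjusted p = 0.628). The lid subunits Psmd11 and Psmd3, at 0.10 and −0.10, lay at either end, and Psmd6, Psmd7, Psmd8, Psmd12 and Psmd13 between −0.05 and 0.009.

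The remaining regulators showed the same narrow range. Psmd5, Psmd9 and Psmd10, chaperones that assemble the cap base and then leave it, had log2 fold changes of 0.02, −0.009 and −0.09, and Psmd10 (also known as gankyrin) read 9.32, 9.40 and 9.43 in B6 and 9.25, 9.35 and 9.29 in B6-ChrYSJL. Psme3, which forms the nuclear activator related to PA28, read 9.47, 9.67 and 9.58 in B6 and 9.72, 9.60 and 9.68 in B6-ChrYSJL. Its 3 B6 pools spread more widely than its 3 B6-ChrYSJL pools, and the log2 fold change was 0.09 (SE 0.07, limma adjusted p = 0.690). The activator Psme4 had −0.10 and the inhibitor Psmf1 0.01.

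Among the chaperones of core assembly, Psmg1, Psmg2 and Psmg4 had log2 fold changes of 0.01, 0.04 and 0.08 and Psmg3 −0.14. For Psmg3 the value ran from −0.26 without B6 pool 1, at an unadjusted p under 0.05 (limma adjusted p = 0.443), to −0.06. Psmg4 read 9.84, 9.91 and 9.78 in B6 and 9.94, 9.96 and 9.87 in B6-ChrYSJL (limma adjusted p = 0.701). Of the genes that match by name alone, Psmc3ip, a partner of meiotic recombination proteins, had −0.08. Psme3ip1 had −0.14 (SE 0.12, limma adjusted p = 0.705), with 8.90, 8.60 and 8.62 in B6 and 8.36, 8.62 and 8.72 in B6-ChrYSJL, a spread set by 1 high pool of B6 and 1 low pool of B6-ChrYSJL. Without that B6-ChrYSJL pool 1 it was −0.04, and without B6 pool 1 also −0.04.

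The genes with several transcript clusters gave more than one reading, and some disagreed. All 3 clusters of the alpha subunit Psma3 had the B6-ChrYSJL pools above the B6 pools, by 0.06 for the chosen cluster 10543783, 0.09 for 10419711 and 0.19 for 10396193. The last of these read 10.25, 10.23 and 10.21 in B6 and 10.36, 10.49 and 10.42 in B6-ChrYSJL (SE 0.06, limma adjusted p = 0.382, unadjusted p under 0.05). For Psmd2 the chosen cluster 10434467 had a log2 fold change of −0.005 and cluster 10362392 had −0.18, at 9.65, 9.66 and 9.66 in B6 and 9.46, 9.50 and 9.48 in B6-ChrYSJL (limma adjusted p = 0.388, unadjusted p under 0.05). The pools of each group lay close together at this cluster and the groups were apart, whereas at the chosen cluster they overlapped. Psmb3 and Psmc1 changed sign between clusters, at −0.12 and 0.02 for Psmb3 and −0.12 and 0.03 for Psmc1, and Psma5 had 0.04 and 0.01. Near-identical copies of a gene elsewhere in the genome can carry such clusters, and which locus each cluster measures is not given in the sources used here, so values for these 5 genes are uncertain. With the cluster of lowest mean in place of the highest, a choice added after seeing the data, 3 of the 50 genes reached an unadjusted p under 0.05, a share below the 10.6% of all clusters, and 0 the FDR.

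**Figure D3:**
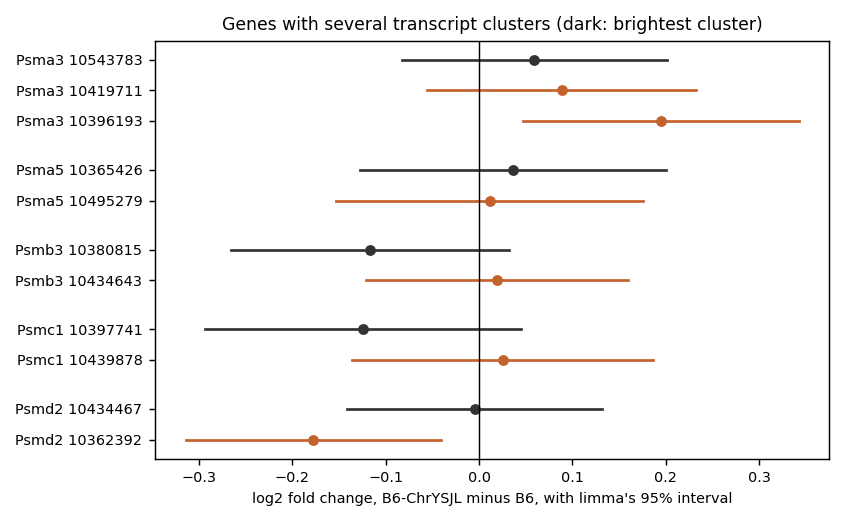
Log2 fold change (horizontal axis, B6-ChrYSJL minus B6) with limma's 95% interval for every single-symbol transcript cluster of the 5 genes that have several, the dark points being the clusters chosen by the highest mean. The clusters of Psmd2 lie at −0.005 and −0.18, and the 3 of Psma3 between 0.06 and 0.19.

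Beside the proteasome genes themselves, 3 lists of related genes were read in the same fit, where 10.6% of all clusters reached an unadjusted p under 0.05 and 48.9% lay above 0. Of 30 listed proteasome cofactors, 20 had a cluster with a single symbol, and 0 of them reached an unadjusted p under 0.05, with 10 estimates above 0, 10 below and a median of −0.001. Nfe2l2, one of the transcription factors that act on the antioxidant response element, had the largest, 0.20 (limma adjusted p = 0.478), with 9.69, 9.43 and 9.66 in B6 and 9.73, 9.76 and 9.90 in B6-ChrYSJL. The groups did not overlap for 7 of the 20, higher in B6-ChrYSJL for 6 (Nfe2l2, Sem1, Akirin2, Uchl5, Ube3c and Nploc4) and lower for Ufd1, beside the 17.1% of all clusters given above. Sem1, a small subunit of the cap that the name rule does not reach, had 0.15 (limma adjusted p = 0.495), Akirin2, which brings proteasomes into the nucleus, 0.14 (limma adjusted p = 0.538), and Txnl1, a thioredoxin that binds the cap, 0.11. For Nfe2l1, the factor known to raise proteasome genes when proteasome activity falls, the estimate was −0.11.

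Of 12 listed genes of class I antigen presentation, 10 had a cluster with a single symbol, 0 reached an unadjusted p under 0.05, 2 estimates were above 0 and 8 below, and the median was −0.08. Over all clusters 10.6% reached that p and 48.9% lay above 0, and 44.4% of those above background lay above 0. The groups did not overlap for 2 of the 10, Tapbpl and Calr, both lower in B6-ChrYSJL, beside 17.1% of all clusters. Tap1, which shares its start region with Psmb9, read 10.28, 10.54 and 10.28 in B6 and 10.32, 10.32 and 10.44 in B6-ChrYSJL. Its highest pool was B6 pool 2, which was also the highest pool of Psmb9, and its log2 fold change was −0.008 (limma adjusted p = 0.982). Those with the smallest p were the peptide editor Tapbpl at −0.14 (limma adjusted p = 0.484), the light chain B2m at 0.14 (limma adjusted p = 0.533), the chaperone Calr at −0.10 and the peptide-loading protein Tapbp at −0.12.

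Of 34 listed interferon-stimulated genes, 29 had a cluster with a single symbol and 0 reached an unadjusted p under 0.05, with 5 estimates above 0, 24 below and a median of −0.08. Over all clusters 10.6% reached that p and 48.9% lay above 0, and 44.4% of those above background lay above 0. The groups overlapped for all 29. The 4 with the smallest p were Stat2 at −0.18 (limma adjusted p = 0.598), Gbp3 at −0.18, Dhx58 at −0.26 and Isg20 at −0.16. The list was high in 1 pool. Its centred mean was −0.17, 0.39 and −0.08 in B6 and −0.04, 0.07 and −0.17 in B6-ChrYSJL, so that B6 pool 2 stood above the other 5. In the same pools the 5 immune subunits had centred means of −0.07, 0.02 and −0.005 in B6 and 0.04, 0.02 and −0.005 in B6-ChrYSJL. B6 pool 2, the highest for the interferon list, was also the highest B6 pool for the immune subunits, at 0.02. It lay below B6-ChrYSJL pool 1, at 0.04. B6 pool 1 was the lowest of the 6 for both, by little for the interferon list. Whether the immune subunits follow the interferon list was not tested. Irf1, the interferon-gamma response factor known to drive the shared Psmb9 and Tap1 region, read 9.41, 9.70 and 9.68 in B6 and 9.49, 9.55 and 9.62 in B6-ChrYSJL, with B6 pool 1 again lowest.

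**Figure D4:**
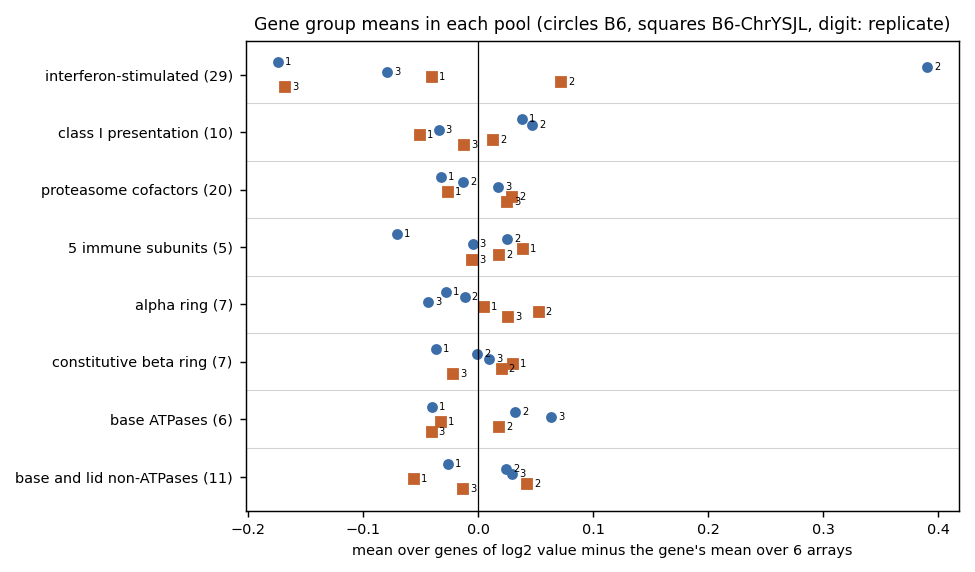
Mean over the genes of each group (number of genes in parentheses) of each log2 value after subtracting that gene's mean over 6 arrays (horizontal axis, log2 units), for 3 B6 pools (circles) and 3 B6-ChrYSJL pools (squares) with replicate numbers. Interferon-stimulated genes run from −0.17 to 0.39, whereas the 5 immune subunits stay between −0.07 and 0.04 and the alpha ring between −0.04 and 0.05.

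Markers of other cells were read in the same pools, because all nucleated cells express proteasome genes. The CD8 markers Cd8a and Cd8b1 were both lower in B6-ChrYSJL, with log2 fold changes of −0.54 and −0.28 (limma adjusted p = 0.277 and 0.376, both unadjusted p under 0.05) and centred means of 0.09 to 0.29 in B6 and −0.30 to −0.15 in B6-ChrYSJL. All 6 B cell markers read had estimates above 0, with a median of 0.21, where 48.9% of all clusters lay above 0. Their centred means were −0.17 to −0.10 in B6 and −0.27 to 0.44 in B6-ChrYSJL. H2-Ab1, at 0.64 (limma adjusted p = 0.398), was the 1 of the 6 past an unadjusted p of 0.05. The natural killer markers Ncr1, Klrb1c and Klre1 were below background. Of 7 myeloid and dendritic markers, Lyz2 and Itgam were above background, at −0.24 and −0.10 with Itgam lower in B6-ChrYSJL without overlap, and Itgax, below background, was higher at an unadjusted p under 0.05. The centred means of the 7 were −0.08 to 0.11 in B6 and −0.05 to 0.04 in B6-ChrYSJL. The part of these cells in the values above was not tested, and in sorted pools fewer cells of a type and less RNA per cell cannot be told apart.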

How the data were processed

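Sorted CD4+TCRβ+ cells were profiled on Affymetrix Mouse Gene 1.0 ST arrays. The deposited values are log2 RMA values from Partek, for which the authors corrected background, quantile-normalized and summarized probes by median polish. GCOS and mm9 also stand in the submitters' processing notes. No further normalization was applied. Of 35556 clusters, 21789 carried 1 gene symbol and 1621 several in the platform annotation. All 23410 entered 1 fit in limma 3.58.1 (R 4.3.3, lmFit and eBayes, B6-ChrYSJL minus B6, no block, two-sided), and p was adjusted by Benjamini-Hochberg over the 23410, of which 61.6% exceeded background. The pools are biological replicates per the labels, and the number of arrays limits the precision. Exact permutation tests used scipy 1.17.1. The fit was tested on simulated data. RefSeq tables gave current symbols, gene order and promoters.

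The members and lists were chosen with earlier results of these data known. Pool values were given for the immune subunits, Psmb5, Psmb6, Psmb7, genes at an unadjusted p under 0.05 and the smallest p of each role class, and the 4 genes of smallest p were named from each list. Psma4, Psmb3, Psmc4, Tap1, Irf1, Nfe2l1, other cofactors without overlap, the pool values of Nfe2l2 and those of single clusters were picked after seeing them. Alternatives were an intensity trend with robust variances, the unmoderated linear model of the methods, array weights, a filter on dim transcripts, all deposited clusters, centred medians, a second quantile normalization, averaging a gene's clusters, a replicate block, and leaving out each pool. The lowest cluster per gene was added after seeing the data.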

Additional observations from a re-analysis of the deposited data

How the results depend on the processing

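Under every alternative 0 of the 50 proteasome genes passed an FDR of 0.05 in limma, the smallest adjusted p being 0.199 with an intensity trend and robust variances. The number at an unadjusted p under 0.05, 1 in the fit above, was 2 with array weights, 3 with the trend and robust variances, 4 with the unmoderated linear model, 2 among transcripts above background and 0 with the replicate number as a block. Over all clusters the shares at the same settings were 11.7%, 11.8%, 9.71%, 13.8% and 9.45%, so that each count of members lay below the share over all clusters. The number was 3 with the lowest cluster per gene (added after seeing the data) and 0 to 2 with 1 pool left out. Psmb7 was not among them under the block or without any pool but B6 pool 1. For pools with the same replicate number, the deviations from the group means correlated at −1e-04, −0.0358 and −0.0166. These values show no shared shift of such pools, but they cannot show whether the pools were handled together. The median log2 fold change ran from −0.01 to 0.02. The median of the 5 immune subunits ran from −0.00773 to 0.0816 with 1 pool left out, and B6 pool 1 set its lowest value.

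Single genes were followed under the alternatives for 23 of the 50 and not for the others. Of these 345 values, 16 changed sign and none crossed the FDR. Psma1 was 0.00152 with array weights, 0.0179 after the second quantile normalization and −0.0229 to 0.0199 with 1 pool left out. Psmb9 was −0.0130 with centred medians, −0.0115 after the second quantile normalization and −0.0249 to 0.0265 with 1 pool left out. With 1 pool left out Psmb6 ran from −0.0542 to 0.0881, Psmb8 from −0.00773 to 0.128, Psmc2 from −0.0188 to 0.0869, Psmd5 from −0.0338 to 0.0535 and the difference of Psmb9 minus Psmb6 from −0.0922 to 0.0502. The cause of these changes was not tested. Over all transcripts, 4 passed the FDR in the moderated fit above and 0 to 47 under the alternatives. The study itself found 0 differentially expressed transcripts at an FDR under 0.05, and the unmoderated linear model here also gave 0. It did report alternatively spliced transcripts past the same FDR, and splicing was not examined here.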
